A study of Homo sapiens with 5 samples.

Results

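The genes described here belong to families of enzymes that cut or cross-link the extracellular matrix or shed membrane proteins. Inhibitors, and relatives that lack the protease domain or its catalytic motif, are among them. They were the rows of the deposited count table whose symbol belongs to the families MMP, TIMP, ADAM, ADAMTS, ADAMTSL and LOX, with a sum of at least 20 counts over the 5 libraries. The rule found 49 genes among the 77 of the pattern and the 28278 of the table. The cells were HEK293T, a cell line derived from human embryonic kidney, sampled as 3 control libraries whose genotype label is WT and 2 libraries whose genotype label is ascorbic acid treatment (vitamin C). All were grown in DMEM high glucose with heat-inactivated FBS and antibiotics. Cells were seeded for 24 h and then treated, with the medium changed every 6 h, for 24 h in a DNA methylation test or 36 h in an RNA methylation test. The labels do not say which time applied here, give no dose, and name no separate cultures, so that the p-values rest on a spread among libraries that can be purely technical.

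Matrix metalloproteinases (MMPs) are zinc endopeptidases that cut collagens and other matrix proteins, either secreted or held at the cell surface, and the TIMPs bind and block them. ADAMs are membrane proteins, many of which cut other membrane proteins free of the cell, while ADAMTS enzymes are secreted and process procollagens, proteoglycans and other matrix proteins. ADAMTSL proteins resemble ADAMTS enzymes but lack the protease domain. Lysyl oxidases are copper-dependent amine oxidases that convert lysines of collagen and elastin to aldehydes, from which the cross-links of the fibres form. In kidney these genes are known for the remodelling of interstitial and basement membrane matrix.

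The libraries held 35106664 to 57212071 gene counts. Among counts from 1 to 10, 71.3 to 75.9% were even, so low counts may not be independent reads, and a fit on halved counts was also made. Levels are CPM, counts scaled to a common library total with TMM factors. Changes are log2 fold changes of ascorbic acid over control ± SE from edgeR's quasi-likelihood test, and a gene passed at an adjusted p of 0.05 over the 15271 genes tested. Of those, 1303 were higher and 879 lower. Scaling by library totals in place of TMM gave 1712 higher and 389 lower (81.5% of the calls higher in place of 59.7%), and moved the median of all genes from 0.003 to 0.045. DESeq2 gave 806 higher and 906 lower. Of the markers of the line's neural and nephrogenic lineage, 10 of 10 were in the table, 9 were tested, and 1 was higher (NEFM) and 1 lower (EYA1). They summed to 935 to 966 CPM in control libraries and 1002 to 1051 CPM in treated ones, most of it VIM, and STMN2 was at 0 in the controls.

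Of the 49 genes, 44 were expressed highly enough to be tested. With ascorbic acid 10 rose, 1 fell and 33 did not pass. Over all tested genes 14.3% passed, 8.53% higher and 5.76% lower. The 10 that rose were the lysyl oxidases LOXL1, LOXL2, LOXL3 and LOXL4, the gelatinase MMP2, the inhibitor TIMP1, the sheddase ADAM15, and ADAMTS1, ADAMTS7 and ADAMTS18. The 1 that fell was the membrane-type proteinase MMP16. The median log2 fold change was 0.14 over the 44 tested genes and 0.003 over all tested genes. ADAMTS8 and ADAMTS18 passed the filter on low counts only through the ascorbic acid libraries. Among the other 42 genes 9 rose, with a median of 0.12. The groups did not overlap in 21 of the 44 genes, with ascorbic acid above in 20 and below in 1. The 20 include ADAMTS8 and ADAMTS18, which that filter kept because they were high there. Of all tested genes 43.1% did not overlap, 22.6% with ascorbic acid above and 20.4% below. Leaving out ascorbic acid library 1 leaves 1 treated library. The calls of ADAM15, TIMP1, LOXL2, ADAMTS18 and MMP16 then ended, with fitted values of 0.21, 0.19, 0.38, 2.11 and -0.30. Against a fold of 1.2 in place of no change, 3 passed, MMP2, ADAMTS7 and LOXL1, where 1.87% of all tested genes passed.

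**Figure D1:**
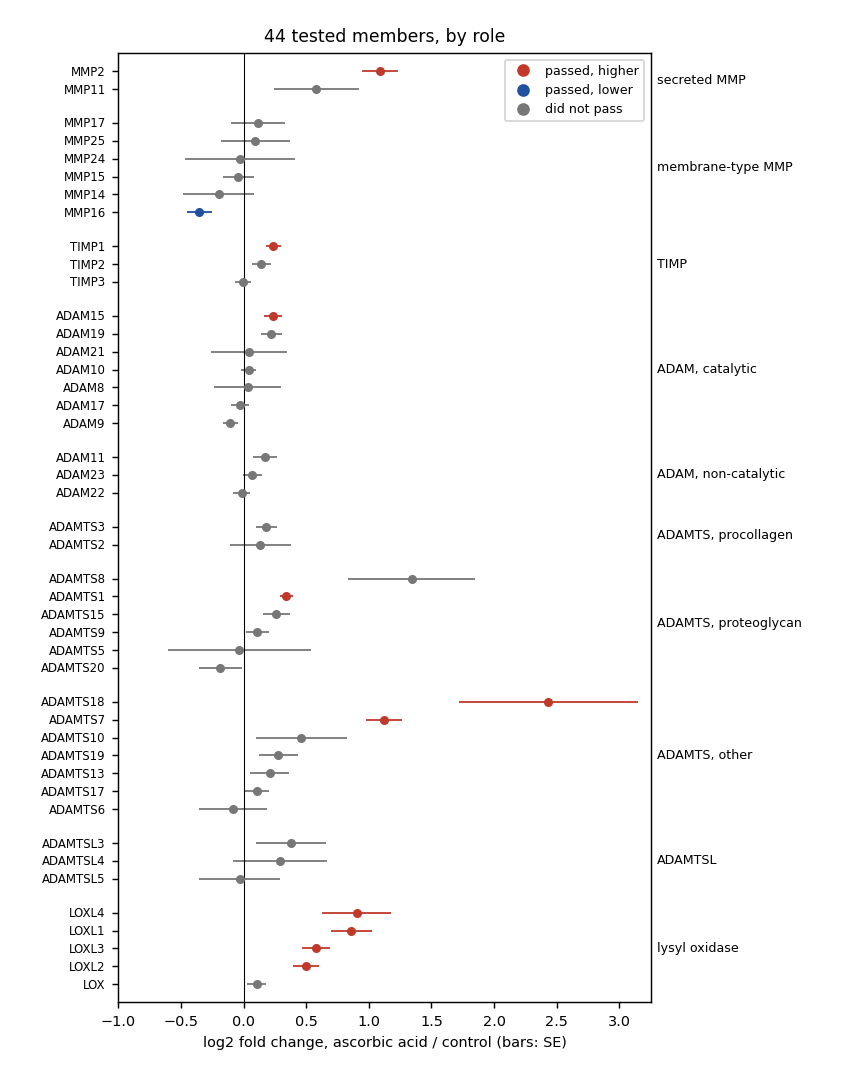
Log2 fold change (ascorbic acid over control, horizontal axis) of each of the 44 tested genes, grouped by role, with bars of 1 SE from the edgeR fit (3 control and 2 ascorbic acid libraries). LOXL1, LOXL2, LOXL3 and LOXL4 passed as higher and LOX, at 0.10, did not.

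The median change of all tested genes varied with their level, so the 44 genes are set beside genes of their own level. Below 1 CPM, 10 of them had a median log2 fold change of 0.33, against 0.21 in all 2402 tested genes of that level. Without ADAMTS8 and ADAMTS18, which passed the filter only through the treated libraries, the other 8 had a median of 0.17, below that of all genes. From 1 to 5 CPM it was 0.13 in 13 of these genes and 0.15 in all. From 5 to 25 CPM it was 0.14 in 13 of these genes and 0.04 in all, and from 25 to 100 CPM it was 0.02 in 8 of these genes and -0.02 in all. In the level from 1 to 5 CPM, 4 of the 13 genes rose (MMP2, ADAMTS7, LOXL1 and LOXL4), against 14.5% of all genes of that level.

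**Figure D2:**
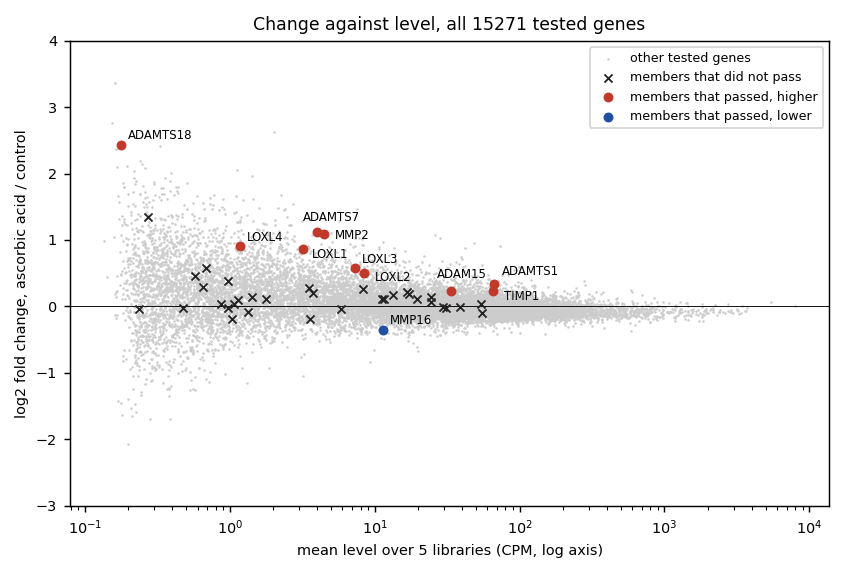
Log2 fold change against mean level over the 5 libraries (CPM, log axis) for all tested genes (grey) and for the 44 tested matrix genes (members; crosses did not pass, filled points passed). MMP2, ADAMTS7 and LOXL1, at 3.19 to 4.44 CPM, sit at 0.86 to 1.12 on the vertical axis, and MMP16 is the blue point below 0.

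Per kilobase of exon, the inhibitor TIMP1 stood highest, at 39.7 ± 3.11 CPM per kilobase in the controls (SD, n = 3). ADAMTS1 (8.58 ± 0.178), TIMP3 (8.49 ± 0.382) and the sheddase gene ADAM9 (8.22 ± 0.210) came next on this scale, and each differed from the next by less than the larger SD of the pair. ADAM15 (4.79 ± 0.404), TIMP2 (4.18 ± 0.270), ADAM23 (3.76 ± 0.165) and LOX (3.42 ± 0.126) followed. The MMP genes were lower on the same scale, with MMP15 at 1.35 ± 0.109, MMP16 at 1.02 ± 0.0884, MMP2 at 0.616 ± 0.0984 and MMP14 at 0.246 ± 0.0341 CPM per kilobase. HEK293T cells thus held more RNA per length of each of the 3 measured TIMPs than of any MMP.

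**Figure D3:**
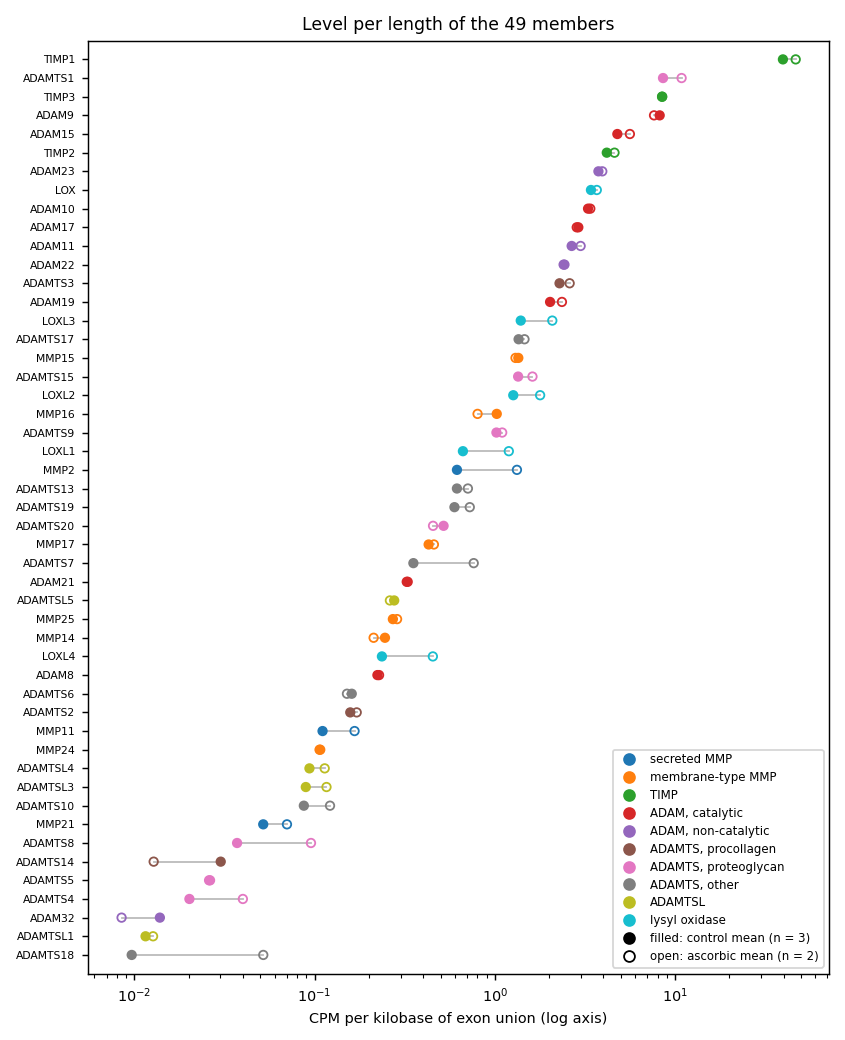
Level per kilobase of exon union (CPM per kilobase, log axis) of the 49 genes, ordered by the control mean (filled, n = 3), with the ascorbic acid mean (open, n = 2) joined by a line. TIMP1 is highest at 39.7 in the controls, and the longest lines near the middle belong to MMP2, ADAMTS7, LOXL1 and LOXL4.

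Among the lysyl oxidases 4 of 5 rose and LOX did not pass, with a median log2 fold change of 0.58. Over all tested genes 8.53% rose. LOX was the most abundant of the 5 per length and LOXL4 the least. LOXL1 (chromosome 15, 73925989 to 73952137, GRCh38), which is known for its part in elastic fibre upkeep, was at 2.06, 2.68 and 2.51 CPM in control libraries 1 to 3 and at 4.35 CPM in each ascorbic acid library. Both treated libraries lay above all controls. The change was 0.86 ± 0.16 (edgeR adjusted p = 0.000468), a 1.82-fold increase. LOXL3 (chromosome 2, 74532414 to 74555690) was at 6.18, 5.58 and 6.47 CPM in the controls and 8.39 and 9.80 CPM with ascorbic acid. It rose by 0.58 ± 0.11 (adjusted p = 0.000862), with groups that did not overlap.

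LOXL2 (chromosome 8, 23297189 to 23425328), which cross-links type IV collagen of basement membranes, was at 7.19, 7.05 and 7.42 CPM against 10.99 and 9.38 CPM, again without overlap. It rose by 0.50 ± 0.11 (edgeR adjusted p = 0.00189), and the call ended without ascorbic acid library 1 (0.38, adjusted p = 0.0793). LOXL4 (chromosome 10, 98247690 to 98268250) was at 1.03, 0.895 and 0.664 CPM in the controls and 1.299 and 2.01 CPM with ascorbic acid, 2 values far apart that both lay above the controls. It rose by 0.90 ± 0.27 (adjusted p = 0.0254), and the call ended without control library 3 (0.76, adjusted p = 0.0602) or ascorbic acid library 2 (0.56, adjusted p = 0.353). It also ended in DESeq2 (0.91, adjusted p = 0.0893) and under cyclic loess (0.69, adjusted p = 0.109). LOX (chromosome 5, 122063195 to 122078360) was at 19.8, 18.6 and 18.5 CPM against 20.1 and 20.8 CPM. The treated values lay just above the controls, and the change of 0.10 ± 0.08 (95% interval -0.05 to 0.25) did not pass (adjusted p = 0.401). Of the LOXL3 exon length 19.3% is shared with 2 other genes. LOXL1 shares 9.21% of its exon length with LOXL1-AS1, and LOXL3 14.3% with HTRA2, both on the opposite strand. Reads of such pairs cannot be told apart, as no source used here gives the strand setting of the counts. HTRA2 had 0.02 ± 0.08 and LOXL1-AS1 0.28 ± 0.14, and neither passed (adjusted p = 0.891 and 0.186).

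**Figure D4:**
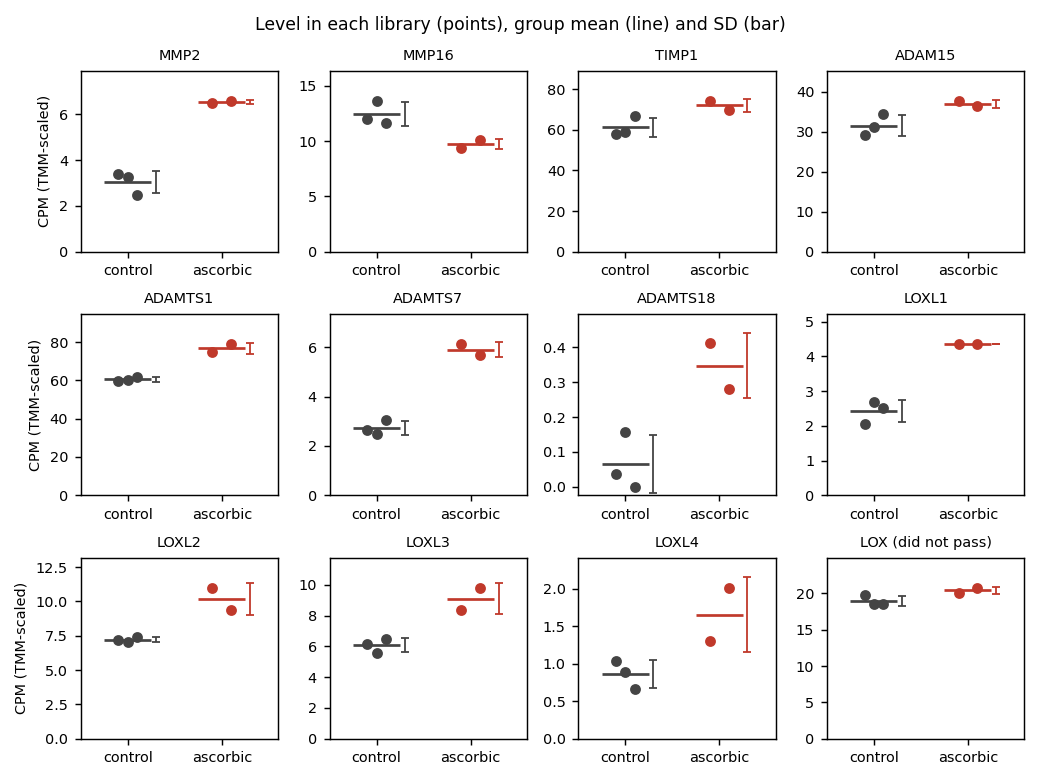
Level in each library (CPM, points) with the group mean (line) and SD (bar) for the 11 genes that passed and for LOX, in 3 control and 2 ascorbic acid libraries, each panel with its own vertical scale. The groups do not overlap in any of the 12 panels, of which 11 were chosen because they passed on these same values. Among them, ADAMTS18 passed the filter on low counts only through the ascorbic acid libraries. Of all tested genes 43.1% did not overlap. The LOX groups lie at 18.5 to 19.8 against 20.1 to 20.8 CPM.

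Ratios within a library do not depend on the scaling of its total. The ratio of LOXL1 to LOX counts was 0.104, 0.144 and 0.136 in the controls and 0.217 and 0.209 with ascorbic acid. LOXL2 to LOX gave 0.364, 0.380 and 0.401 against 0.548 and 0.452. Both ratios were higher in each treated library than in each control library. They were chosen after the values of the single genes were seen, so they restate those values and are no separate support. An exact two-sided permutation test on the log2 ratio gave p = 0.1 for each, the smallest value that 10 arrangements of 3 and 2 libraries allow, and 0.16 after adjustment over the 8 ratios computed.

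Of 16 secreted MMP genes in the table, 3 reached the minimum sum and 2 were tested. MMP2 (chromosome 16, 55389700 to 55506691), gelatinase A, which cuts type IV and denatured collagens, was at 3.38, 3.26 and 2.48 CPM in the controls and 6.49 and 6.59 CPM with ascorbic acid. The treated libraries agreed closely and stood well above the controls. Its change of 1.09 ± 0.14 (edgeR adjusted p = 3.53e-06) was a 2.13-fold increase. MMP11, a stromelysin of stromal cells, was at 0.604, 0.421 and 0.693 CPM against 0.742 and 0.982 CPM, did not overlap between groups and did not pass (0.58 ± 0.34, adjusted p = 0.272). MMP21 had 3 to 8 counts in every library and was not tested.

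The secreted MMP genes of the chromosome 11 cluster (MMP7, MMP20, MMP27, MMP8, MMP10, MMP1, MMP3, MMP12 and MMP13, from 102520508 to 102955734) were all under the minimum. Of these 9 genes, which include the interstitial collagenases MMP1, MMP8 and MMP13, 6 had no count in any library, where 3 counts are the upper limit that a count of 0 allows. MMP13 had 0 counts in each control, against 6 and 8 with ascorbic acid. The gelatinase MMP9 had 6, 0 and 0 counts, against 5 in each treated library, and was also under the minimum.

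Membrane-type MMPs include MMP14, MMP15, MMP16 and MMP24, which span the membrane, and MMP17 and MMP25, which are held by a lipid anchor. All 6 were tested, 0 rose, 1 fell and 5 did not pass. That is 16.7% called, near the 14.3% of all tested genes. MMP16 (chromosome 8, 88032009 to 88328025), known for activating the MMP2 proenzyme, was at 12.0, 13.6 and 11.6 CPM in the controls and 9.38 and 10.1 CPM with ascorbic acid, below all controls. It fell, with -0.35 ± 0.10 (edgeR adjusted p = 0.0153), and the call ended without control library 2 (-0.28, adjusted p = 0.100) or ascorbic acid library 1 (-0.30, adjusted p = 0.120). MMP14, the chief activator of MMP2 in many cells, was at 0.924, 1.21 and 1.16 CPM against 0.845 and 1.05 CPM and overlapped between groups (-0.20 ± 0.28, adjusted p = 0.700). MMP15 had 5.97 ± 0.483 CPM (SD, n = 3) and 5.76 ± 0.603 CPM (SD, n = 2). Its change of -0.04 ± 0.13 did not pass and was 0.001 under library totals. MMP17 had 0.11 ± 0.22 and did not pass. MMP25, 35.2% of whose exon length lies under the antisense gene MMP25-AS1, and MMP24, with 18.1% under MMP24OS, overlapped between groups, and their counts are uncertain for that reason.

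The TIMPs differed in their values. TIMP1 (chromosome X, 47582313 to 47586789), which inhibits most secreted MMPs, was at 57.8, 59.1 and 66.7 CPM in the controls and 74.3 and 69.8 CPM with ascorbic acid. Control library 3 lay nearer to the treated libraries than to the other controls, without overlap. TIMP1 rose by 0.24 ± 0.06 (edgeR adjusted p = 0.00694), and the call ended without control library 1 (0.20, adjusted p = 0.0632) or ascorbic acid library 1 (0.19, adjusted p = 0.0772). TIMP2, which both inhibits MMP2 and takes part in its activation at the cell surface, was at 24.1, 21.8 and 24.8 CPM against 26.6 and 25.4 CPM and did not pass (0.14 ± 0.07, adjusted p = 0.207). Of the TIMP2 exon length 10.0% is shared with 2 other genes. TIMP3, which binds the matrix and also blocks ADAM17, was at 41.1, 37.9 and 38.2 CPM against 38.5 and 39.6 CPM. Its groups overlapped, and its change of -0.0045 (95% interval -0.13 to 0.12) turned positive under library totals (0.04) and upper-quartile scaling (0.01). TIMP4 had 4, 0 and 0 counts against 4 and 10, just outside the minimum.

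The other ratios were also chosen after the values were seen, and restate them. The ratio of MMP2 to TIMP2 counts was 0.140, 0.149 and 0.100 in control libraries 1 to 3, against 0.244 and 0.259 in the treated ones. Each treated library stood above each control, with an exact two-sided permutation p = 0.1, again the smallest value possible, and 0.16 after adjustment over the 8 ratios. MMP2 to TIMP1 and ADAMTS7 to ADAMTS1 gave the same p values, with log2 differences of 0.88 and 0.77. The last 3 ratios were less far apart. TIMP1 to TIMP3 differed by 0.24 (exact permutation p = 0.2), ADAM17 to ADAM10 by -0.07 (p = 0.3) and ADAMTS3 to ADAMTS2 by 0.05 (p = 1) on the log2 scale.

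Of 7 tested ADAM genes with the catalytic zinc-binding motif, 1 rose and 6 did not pass. That is 14.3% called, the same share as over all tested genes. ADAM15 (chromosome 1, 155050566 to 155062775), which can shed membrane proteins and binds integrins, was at 29.1, 31.1 and 34.4 CPM in the controls and 37.7 and 36.3 CPM with ascorbic acid, above all controls. It rose by 0.24 ± 0.07 (edgeR adjusted p = 0.0217). The call ended without control library 1 (0.18, adjusted p = 0.135) or ascorbic acid library 1 (0.21, adjusted p = 0.121), and DESeq2 gave 0.23 with an adjusted p of 0.0503. The principal sheddases of the family did not pass. ADAM10, which sheds Notch, APP and cadherins, was at 52.5, 55.2 and 52.0 CPM against 52.5 and 57.1 CPM (0.04 ± 0.06, adjusted p = 0.700). ADAM17, which sheds tumour necrosis factor and ligands of the EGF receptor, was at 29.9, 33.3 and 30.5 CPM against 29.9 and 31.4 CPM (-0.03 ± 0.07, adjusted p = 0.832). Both overlapped between groups, with 95% intervals of -0.07 to 0.16 for ADAM10 and -0.16 to 0.11 for ADAM17. ADAM17 shares 12.3% of its exon length with IAH1 on the opposite strand, so its counts are less certain. ADAM9 had 56.8 ± 1.45 CPM (SD, n = 3) and 52.9 ± 4.52 CPM (SD, n = 2) and did not pass (-0.11 ± 0.06).

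ADAM19, which takes part in heart development and neuregulin shedding, was at 15.3, 15.6 and 15.9 CPM against 19.6 and 16.7 CPM. It did not overlap between groups and did not pass (0.22 ± 0.08, edgeR adjusted p = 0.0753), while it passed under library totals (0.26, adjusted p = 0.0342), under the 5 CPM filter (0.25, adjusted p = 0.0461) and without ascorbic acid library 2 (0.32, adjusted p = 0.0337). ADAM8 (1.07 CPM in the controls) and ADAM21 (0.862 CPM) overlapped between groups. The ADAM genes without the motif encode adhesion proteins, of which ADAM22 and ADAM23 are receptors of the synaptic protein LGI1. Of 3 tested, 0 passed in edgeR, DESeq2 or limma-voom, and 0 had an unadjusted edgeR p under 0.05. ADAM22 was at 29.6, 31.1 and 28.5 CPM against 29.2 and 29.5 CPM, and ADAM23 at 24.3, 25.1 and 23.0 CPM against 26.3 and 24.4 CPM. ADAM11 was at 11.7, 14.3 and 12.2 CPM against 14.6 and 13.98 CPM, so that the groups of all 3 overlapped.

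The ADAMTS enzymes that trim procollagens at the amino end are ADAMTS2, ADAMTS3 and ADAMTS14. ADAMTS3, the most abundant of them, was at 17.2, 16.1 and 15.9 CPM against 17.8 and 19.6 CPM, did not overlap between groups and did not pass (0.18 ± 0.08, edgeR adjusted p = 0.139). ADAMTS2 was at 1.17, 1.68 and 1.27 CPM against 1.61 and 1.38 CPM and overlapped (0.13 ± 0.24, adjusted p = 0.765). Of the 2 tested, 0 passed in edgeR, DESeq2 or limma-voom, and 1 (ADAMTS3) had an unadjusted edgeR p under 0.05. ADAMTS14 had 4, 11 and 4 counts against 2 and 4 and was not tested.

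Among the proteoglycan-cutting ADAMTS genes 6 were tested, 1 rose and 5 did not pass. That is 16.7% called, near the 14.3% of all tested genes. ADAMTS1 (chromosome 21, 26835747 to 26845409), which cuts versican and aggrecan, was at 59.8, 60.0 and 62.0 CPM in the controls and 74.8 and 78.9 CPM with ascorbic acid. The 3 controls lay close together and well below both treated libraries. ADAMTS1 rose by 0.34 ± 0.05 (edgeR adjusted p = 5.02e-05), a 1.27-fold increase. ADAMTS5, which lies 72.5 kilobases away, had 4 to 18 counts in every library and did not pass. ADAMTS15 (8.03, 7.18 and 7.71 CPM against 9.94 and 8.42 CPM) and ADAMTS9 (10.2, 11.3 and 11.3 CPM against 11.7 CPM in each treated library) did not overlap between groups and did not pass (0.26 ± 0.11 and 0.11 ± 0.09). ADAMTS8, 19.98 kilobases from ADAMTS15, had 10, 8 and 4 counts against 26 and 14 and did not pass (1.34 ± 0.51, adjusted p = 0.0744). ADAMTS20 had -0.18 ± 0.17, and ADAMTS4, with 12, 8 and 7 counts against 31 and 8, was not tested.

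Of the 7 other ADAMTS genes, all tested, 2 rose and 5 did not pass, where 8.53% of all tested genes rose. ADAMTS7 (chromosome 15, 78759203 to 78811431), which cuts the cartilage protein COMP and acts in vascular smooth muscle, was at 2.63, 2.50 and 3.06 CPM in the controls and 6.12 and 5.68 CPM with ascorbic acid. Both treated libraries stood far above the 3 controls. The change of 1.12 ± 0.14 (edgeR adjusted p = 2.90e-06), a 2.17-fold increase, was the largest in size among these genes at a mean of at least 1 CPM. ADAMTS7 has pseudogene copies, of which ADAMTS7P1 was in the table with 2 to 4 counts in every library. ADAMTS18 had 2, 6 and 0 counts against 20 and 12 with ascorbic acid. It passed the filter on low counts only through the ascorbic acid libraries, so neither its call nor its lack of overlap is free of that selection. It rose by 2.43 ± 0.71 (adjusted p = 0.0208), a call that ended under cyclic loess (1.75, adjusted p = 0.113), and also without control library 1 (2.05, adjusted p = 0.116) or ascorbic acid library 1 (2.11, adjusted p = 0.193). Its fitted value was 3.84 without control library 2. DESeq2 gave no adjusted p for it, and it was not tested with halved counts or under the 5 CPM filter.

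ADAMTS17, at 11.3, 10.9 and 11.3 CPM against 12.9 and 11.2 CPM, overlapped between groups and did not pass (0.11 ± 0.10, edgeR adjusted p = 0.485). ADAMTS13, the enzyme that trims von Willebrand factor, was at 3.20, 4.26 and 3.09 CPM against 4.16 and 3.93 CPM and overlapped too (0.21 ± 0.16, adjusted p = 0.410). ADAMTS19 (0.28 ± 0.15), ADAMTS10 (0.46 ± 0.37) and ADAMTS6 (-0.08 ± 0.27) did not pass. The ADAMTSL genes were near or below 1 CPM. ADAMTSL5 was at 0.746, 0.816 and 1.44 CPM against 1.196 and 0.701 CPM, and ADAMTSL3 at 0.853, 0.895 and 0.867 CPM against 1.03 and 1.24 CPM. Of 3 ADAMTSL genes tested, 0 passed in edgeR, DESeq2 or limma-voom and 0 had an unadjusted edgeR p under 0.05. ADAMTSL1, with 2 to 10 counts in every library, was not tested.

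The sums just inside the minimum of 20 counts were 25 for MMP21 and ADAMTS14 and 27 for ADAM32, and those just outside were 18 for TIMP4 and 16 for ADAM20 and MMP9. Of the 28 genes of the pattern under the minimum, 14 had no count in any library. ADAM32, the last gene not tested, had 10, 8 and 1 counts against 6 and 2, although its neighbour ADAM9, 1.85 kilobases away, was among the most abundant genes of the set.

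Promoter sequence is shown for 5 genes, so that a reader can set LOX, which did not pass, beside LOXL3, LOXL4, ADAMTS7 and TIMP1, which rose. RefSeq (GRCh38.p14) gave windows of 250 bases before 1 transcript start for 34 of the 49 genes, and not for MMP2, ADAMTS1 or LOXL2. Of these windows 9 lie inside the gene's GENCODE span, among them those of LOXL1, ADAM15 and LOXL3, the last beginning 1.498 kilobases downstream of the gene's 5′ end. Each line gives the stretch of that window, up to 150 bases, that no annotated exon covers, 5′ to 3′ on the gene's strand. Capitals mark matches on either strand to any of 5 motifs. The GC box searched was GGGCGG. For the TATA box the letters were TATAAA, and for the CCAAT box they were the name itself. An AP-1 site was taken as TGANTCA. The TEAD site was taken as GGAATG. Matches of different motifs were counted separately where they overlap. The 5 genes were chosen after their values were seen.
ADAMTS7 (chr15:78811465-78811614, minus strand): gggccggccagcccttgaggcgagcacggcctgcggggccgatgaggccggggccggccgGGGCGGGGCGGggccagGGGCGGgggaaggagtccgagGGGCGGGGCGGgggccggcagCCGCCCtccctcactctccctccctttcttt
LOX (chr5:122078361-122078509, minus strand): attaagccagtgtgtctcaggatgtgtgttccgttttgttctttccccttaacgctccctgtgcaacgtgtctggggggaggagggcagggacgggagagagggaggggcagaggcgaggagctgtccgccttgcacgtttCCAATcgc
LOXL3 (chr2:74553962-74554085, minus strand): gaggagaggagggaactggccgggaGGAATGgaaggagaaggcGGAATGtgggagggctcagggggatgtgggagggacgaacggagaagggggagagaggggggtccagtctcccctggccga
LOXL4 (chr10:98268251-98268400, minus strand): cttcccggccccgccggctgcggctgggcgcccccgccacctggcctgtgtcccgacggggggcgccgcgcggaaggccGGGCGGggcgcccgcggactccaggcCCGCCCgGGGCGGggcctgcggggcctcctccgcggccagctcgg
TIMP1 (chrX:47582186-47582312, plus strand): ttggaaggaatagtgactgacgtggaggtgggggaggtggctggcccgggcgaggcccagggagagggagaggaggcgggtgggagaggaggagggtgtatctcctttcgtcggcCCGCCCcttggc
The stretches of ADAMTS7 and LOXL4 held 6 and 3 GC box matches and were 80.7 and 86.7% G and C. The LOXL3 stretch held 2 TEAD matches, the LOX stretch 1 CCAAT match, and the TIMP1 stretch 1 GC box match. No motif was in all 4 stretches of genes that rose. The stretches lie at unlike distances before the start, at bases 150 to 1 for ADAMTS7 and 250 to 102 for LOX. For LOXL3 they are 143 to 20, for LOXL4 206 to 57 and for TIMP1 250 to 124. The whole LOX window also held 1 GC box match, so the stretches do not compare LOX with the others in like positions. Over the whole 250-base window a GC box was in 5 of the 7 risen genes found and in 21 of the 24 found that were tested and did not pass, against 66.4% of the 11516 windows of tested genes. A TEAD match was in 1 of the 7 and 3 of the 24, against 9.32%, and an AP-1 match in 0 of both, against 3.73%. CpG dinucleotides per window had a median of 24 in the 7, 25 in the 24 and 21 in all windows of tested genes. Shares are for whole windows, which are longer than the stretches printed.

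Other genes of matrix proteolysis were counted from lists that do not include the families above. There 17 of 67 tested genes were higher, 4 were lower and 46 did not pass, and the median log2 fold change was 0.13. Over all tested genes 8.53% were higher and 5.76% lower, the shares to set beside each list that follows. The lists were chosen with earlier results of these data known. Among genes for elastic fibre components and their assembly factors, 8 of 15 tested were higher and 0 lower in edgeR, with a median of 0.47, and 5 passed in DESeq2. FBLN1, which encodes the matrix glycoprotein fibulin-1, was at 33.7, 31.9 and 32.7 CPM in the controls and 45.7 and 45.2 CPM with ascorbic acid (0.47 ± 0.06, edgeR adjusted p = 4.01e-06). LTBP3, which binds latent TGF-beta, rose by 0.61 ± 0.11 (adjusted p = 0.000309). FBLN2 rose by 1.16 ± 0.22 (adjusted p = 0.000637), a call that ended without ascorbic acid library 1 (0.87, adjusted p = 0.0571). Elastin itself (ELN) had no count in any library.

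Of 12 tested activators and upstream proteases 5 rose and 1 fell. The gene that fell was BSG, at 629, 608 and 618 CPM in the controls and 546 and 496 CPM with ascorbic acid (-0.25 ± 0.05, edgeR adjusted p = 0.000468). The plasminogen activator gene PLAT was at 44.7, 43.7 and 48.5 CPM in the controls and 69.0 and 71.3 CPM with ascorbic acid (0.62 ± 0.06, edgeR adjusted p = 9.78e-09). The serine protease gene HTRA1 rose by 0.79 ± 0.10 (adjusted p = 2.34e-06) and the collagen receptor gene DDR1 by 0.53 ± 0.09 (adjusted p = 7.68e-05). Of 7 further inhibitors 1 rose, SPOCK3 (0.72 ± 0.18, adjusted p = 0.00691), a call that ended without ascorbic acid library 2 (0.64, adjusted p = 0.0690). The BMP1 group of procollagen C-proteinases and their enhancers had 0 of 5 past the test in edgeR, DESeq2 or limma-voom and 0 with an unadjusted edgeR p under 0.05. Its most abundant tested gene, PCOLCE2, had 0.07 ± 0.06.

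Of 10 sheddase partners 0 were higher and 1 lower, where 14.3% of all tested genes passed. That was TSPAN5, a tetraspanin that binds ADAM10 (-0.25 ± 0.08, edgeR adjusted p = 0.0261), and its call ended under library totals (-0.21, adjusted p = 0.0697) and when any 1 of the 5 libraries was left out (-0.27 to -0.23, adjusted p = 0.0504 to 0.117). Of 12 tested genes in the list of shed substrates, which also holds EGFR as the receptor of shed ligands, 3 rose and 2 fell. APP, the amyloid precursor protein gene, fell, with -0.22 ± 0.04 (adjusted p = 0.000861). The endocytic receptor gene LRP1 rose by 0.28 ± 0.06 (adjusted p = 0.00304) and EGFR by 0.29 ± 0.08 (adjusted p = 0.0122), and both calls ended without ascorbic acid library 1 (0.22 and 0.23, adjusted p = 0.0588 and 0.142). Of 4 proteoglycans and other ADAMTS substrates 0 passed in edgeR, DESeq2 or limma-voom and 2 had an unadjusted edgeR p under 0.05. Among them was VCAN, the versican gene that ADAMTS1 cuts, at 0.11 ± 0.05 (adjusted p = 0.129). VCAN passed under library totals (0.15, adjusted p = 0.0327) and cyclic loess (0.16, adjusted p = 0.0313). Of 2 enzymes that build the O-fucose glycan of ADAMTS and ADAMTSL repeats 0 passed in edgeR, DESeq2 or limma-voom and 1 had an unadjusted edgeR p under 0.05, and B3GLCT was at -0.01 ± 0.06, which turned to 0.03 under library totals.

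**Figure D5:**
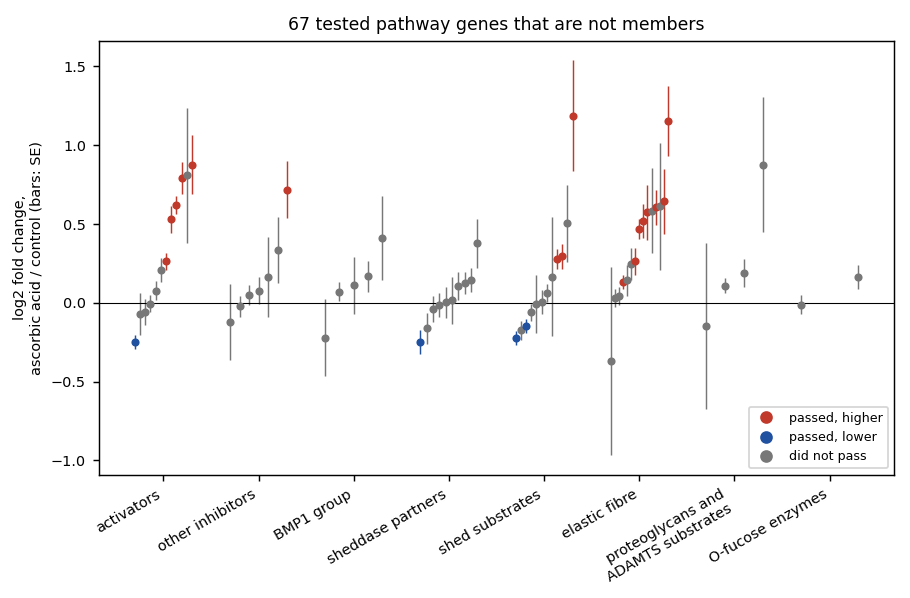
Log2 fold change ± SE (vertical axis) of the 67 tested genes of matrix proteolysis and elastic fibres outside the families, by list, sorted by value within a list. In the elastic fibre list 8 of 15 genes passed as higher and 0 as lower, against 8.53% and 5.76% of all tested genes.

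Matrix genes are also expressed by other cell types, so markers of those were measured beside these results. Of 9 fibroblast markers in the table, 4 had at most 2 counts in every library and FAP had 0 in all. The 9 summed to 1.16 to 1.56 CPM in the controls and 1.90 to 2.60 CPM with ascorbic acid, and 0 of the 3 tested passed in edgeR, 1 of them (PDGFRB) with an unadjusted p under 0.05. Of 7 endothelial markers, which summed to 0.316 to 0.664 CPM against 0.660 to 1.01 CPM, EMCN was at 0 in all libraries and the 1 tested, KDR, did not pass. Of 8 leukocyte markers 4 were at 0 (AIF1, CD163, CD3E and MS4A1), with sums of 0.318 to 0.474 CPM against 0.444 to 0.495 CPM. Of 8 keratinocyte and epithelial markers KRT5 and KRT1 were at 0 and 3 of 5 tested rose (EPCAM, KRT17 and SFN, all under 1 CPM in the controls), with sums of 23.1 to 27.4 CPM against 23.8 to 28.96 CPM, most of it KRT10. The part of the fibroblast, endothelial and epithelial markers in the changes above was not tested. In bulk RNA, more cells that express a gene and more RNA per cell cannot be told apart.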

How the data were processed

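The submitters' processing notes name Trimmomatic 0.39, STAR, featureCounts, DESeq2 and the build hg38 or GRCh38. No source used here gives the annotation, the strand setting or the treatment of reads with several matches. The deposited table holds whole-number read counts for 28278 gene symbols. Its columns were mapped by name, taking "con" for control and "vc" for ascorbic acid.

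The comparison of counts used edgeR 4.0.16 (R 4.3.3) with filterByExpr by group, TMM factors and robust quasi-likelihood fits without covariates. The test was two-sided, with Benjamini-Hochberg adjustment over all 15271 genes tested. Each SE is the fold change divided by the root of its F value. The 95% intervals use the SE with a normal approximation, so they are somewhat narrower than the F test itself would give. Within groups, libraries differed by more than counting noise (chi-square over degrees of freedom 3.95 to 7.20) and none were merged. The code was tested on simulated data. Positions, exon lengths and overlaps came from GENCODE 29 (GRCh38), and promoter windows from RefSeq.

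The genes and lists were chosen with earlier results of these data known. The naming rule took each gene of the set that passed, the 2 most abundant others of each role, the untested genes, and those just inside and outside the minimum. In each further list it took up to 3 called genes by smallest p, or else the most abundant gene. Other genes named, and the 8 ratios, were chosen after values were seen. Alternatives were DESeq2 1.42.0, limma-voom (limma 3.58.1), 3 other scalings, cyclic loess, no filter or a filter at 5 CPM, halved counts, the replicate number as a block, an ordinary prior, a test against a fold of 1.2, and each library left out.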

Additional observations from a re-analysis of the deposited data

How the results depend on the processing

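Over the 11 genes that passed, 182 alternatives gave 157 values on the same side of the threshold and 25 that ended a call, with 0 changes of sign. Calls of MMP2, ADAMTS7 and LOXL1 held in each alternative run for them; LOXL1 was not tested under the 5 CPM filter. Against a fold of 1.2, 286 of all genes, 3 of the set and 7 of the further lists passed. Cyclic loess gave 1447 calls over all genes. Leaving out 1 library gave 1180 to 2047 calls over all genes and 6 to 11 in the set. The causes were not tested.

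Same-numbered libraries correlated at 0.0128 and 0.0542 in their deviations from the group mean. With 2 treated libraries those deviations mirror each other, so the correlations cannot decide whether the replicate numbers pair the libraries. With the replicate block, 9 of the set and 1880 of all genes passed. The calls of ADAMTS18 (1.98, edgeR adjusted p = 0.100) and LOXL4 (0.73, adjusted p = 0.112) ended, and ADAMTSL5 (0.29) and MMP15 (0.019) changed sign.

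The other sign changes were in genes that did not pass. Library totals gave 0.027 for ADAM22, 0.00999 for ADAMTSL5, 0.000997 for MMP15, 0.038 for TIMP3 and 0.031 for B3GLCT. Upper-quartile scaling gave 0.000372 for ADAM22, 0.012 for TIMP3 and 0.0042 for B3GLCT. The 5 CPM filter gave 0.00911 for ADAM22, 0.021 for TIMP3 and 0.013 for B3GLCT. Cyclic loess gave -0.059 for ADAMTS2, -0.067 for MMP17, 0.00765 for TIMP3 and 0.00942 for B3GLCT. ADAMTSL5 had 0.012 in limma-voom and 0.024 with halved counts. Leaving out 1 library gave -0.028 to 0.10 for ADAM10, -0.043 to 0.019 for ADAM22, -0.000435 to 0.20 for ADAMTS17, -0.48 to 0.30 for ADAMTSL5, -0.16 to 0.052 for MMP15, -0.035 to 0.21 for MMP17, -0.032 to 0.042 for TIMP3 and -0.045 to 0.048 for B3GLCT. DESeq2 gave ADAMTS18 no adjusted p. Of the 44 tested genes 23 lay under 5 CPM, where counts are fewest and SEs widest.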
